A study of Mus musculus with 20 samples.

Results

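Hepatic stellate cells are the vitamin A-storing mesenchymal cells that lie between the hepatocytes and the sinusoidal endothelium, and pericytes and vascular smooth muscle cells are the mural cells that wrap the other vessels of the liver. In a quiescent stellate cell retinol is esterified and stored in lipid droplets. After injury the cell loses this store and turns into a contractile, matrix-producing myofibroblast, a change in which platelet-derived growth factor is the best known growth signal. The 9 genes described here mark these states. Lrat, Reln and Hgf stand for the quiescent stellate cell, whereas Des, Pdgfrb, Acta2, Tagln, Rgs5 and Kcnj8 stand for the activated stellate cell or the mural cell. They were chosen by name, and all 9 were found among the 54532 genes of both deposited count tables.

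RNA was sequenced from wild-type C57BL/6 mice aged 6 to 8 weeks. Normal liver (con, 2 libraries) came from mice given normal saline, at day 0. All other libraries came from mice given 1000000 Mc38 cells, a colon adenocarcinoma line of the same strain, which reached the liver through the spleen and portal vein. The pieces were tumor-centric, with the surrounding liver, and were graded by tumor content: low in Lt (2 libraries, day 9), medium in Mt3 (2, day 9), Mt2 (2, day 11) and Mt1 (2, day 11), and high in Ht (3, day 12). L-con was 1 library of tumor-free liver of a metastasis-bearing mouse at day 12. F4/80+TAM (3 libraries) and CD11b+TAM (3) were cells taken with microbeads from Mt2 metastases at day 11. The Methods give 2 livers for each tissue group except L-con, and state that Ht replicates 1 and 3 were made identical, so both were summed here to 1 sample and Ht counted as 2.

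The counts per library ranged from 16032085 to 18246623 in tissue and from 17785496 to 20548370 in sorted cells. Levels are given as CPM, counts scaled by the library total after TMM correction. Host cells and Mc38 cells are both of mouse, so the source of a transcript cannot be told apart, and in these bulk samples fewer cells of a type and less RNA per cell cannot be told apart either. The summed level of the 9 hepatocyte markers found ran from 166252 to 197925 CPM in con, from 25238 to 130153 CPM in the 6 Mt libraries and from 3595 to 5325 CPM in Ht, so liver content moved with the comparisons of con, Mt and Ht. The Lt libraries had 165301 and 92919 CPM, both below con. From con to Lt 0 of the 9 markers were called, where only 0.256% of all genes were called lower, so this count cannot show equal liver content. The labels give male mice for the tissue and the Methods give female mice. Xist was at 0 to 3 counts in every tissue library and at 5547 to 21805 counts in every sorted library, so wherever sorted cells are set against tissue, the sex of the mice and the deposited table cannot be told apart from the cell fraction.

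Lrat encodes lecithin retinol acyltransferase, the enzyme that makes the stored retinyl esters (chromosome 3, 82892579 to 82903973, GRCm38). Lrat was at 17.4 and 15.3 CPM in con. At day 9 the Lt libraries had 24.3 and 26.3 CPM and the Mt3 libraries 24.1 and 23.3 CPM, at day 11 the values were 14.6 and 9.49 CPM for Mt2 and 21.8 and 7.0 CPM for Mt1, and at day 12 both Ht samples had 4.90 and 6.82 CPM. The day 9 metastases were thus above both normal livers, the day 11 metastases lay on both sides of them, and both Ht samples were below all other tissue samples. Reln encodes reelin, a secreted matrix glycoprotein that stellate cells make in the liver (chromosome 5, 21884454 to 22344702). Reln was at 94.5 and 91.9 CPM in con. At day 9 the Lt libraries had 46.6 and 43.6 CPM and the Mt3 libraries 52.4 and 41.9 CPM, at day 11 the values were 39.4 and 19.8 CPM for Mt2 and 38.3 and 20.8 CPM for Mt1, and at day 12 both Ht samples had 8.74 and 10.1 CPM. Every metastasis library was below both normal livers, and the Ht samples were lowest. Hgf encodes hepatocyte growth factor, the ligand of the Met receptor on hepatocytes (chromosome 5, 16553495 to 16620152). Hgf was at 17.2 and 18.9 CPM in con. At day 9 the Lt libraries had 30.1 and 22.3 CPM and the Mt3 libraries 25.9 and 21.6 CPM, at day 11 the values were 21.4 and 11.8 CPM for Mt2 and 22.4 and 10.4 CPM for Mt1, and at day 12 both Ht samples had 7.42 and 7.94 CPM. As for Lrat, both day 9 groups were above con and both Ht samples below all other tissue samples.

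Pdgfrb encodes the beta receptor of platelet-derived growth factor, carried by stellate cells, pericytes and fibroblasts (chromosome 18, 61045150 to 61085061). Pdgfrb was at 19.3 and 12.3 CPM in con. At day 9 the Lt libraries had 33.5 and 42.5 CPM and the Mt3 libraries 42.8 and 37.2 CPM, at day 11 the values were 39.8 and 62.6 CPM for Mt2 and 55.0 and 78.0 CPM for Mt1, and at day 12 both Ht samples had 85.8 and 76.7 CPM. No metastasis library overlapped with con, and Mt1 replicate 2 reached the level of Ht. Acta2 encodes smooth muscle alpha actin, the contractile actin of myofibroblasts and vascular smooth muscle (chromosome 19, 34241090 to 34255336). Acta2 was at 6.99 and 3.06 CPM in con. At day 9 the Lt libraries had 44.7 and 24.2 CPM and the Mt3 libraries 19.4 and 20.99 CPM, at day 11 the values were 30.0 and 86.7 CPM for Mt2 and 32.5 and 93.1 CPM for Mt1, and at day 12 both Ht samples had 56.3 and 58.8 CPM. All metastasis libraries were above con, and the highest values were in replicate 2 of Mt2 and of Mt1, not in Ht.

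**Figure D1:**
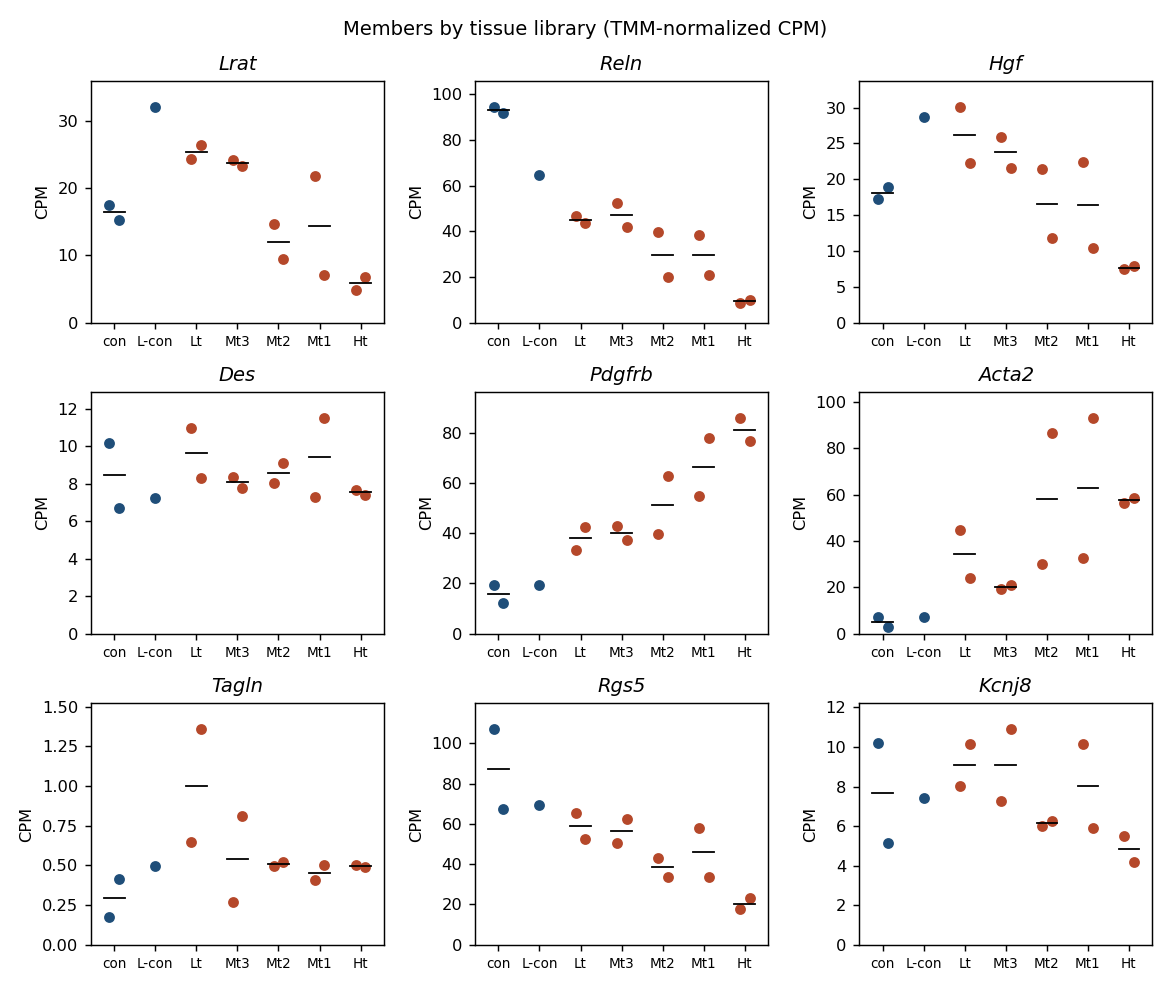
Level of each of the 9 members in each tissue library (y axis, TMM-normalized CPM, from 0) by group (x axis). Points are samples, blue for con and L-con and red for metastases, and bars are means of 2 samples. Reln and Rgs5 have their highest mean in con and their lowest in Ht, Pdgfrb runs the other way, from 12.3 CPM in a con library to 85.8 CPM in an Ht sample, and Lrat and Hgf peak in L-con, Lt and Mt3.

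Muscle genes are known to be driven by serum response factor through the CArG box, which is CC, then 6 bases that are A or T, then GG. The 250 bases before the RefSeq start site (GRCm38.p6) are shown 5′ to 3′ on the strand of the gene for Acta2, the member with the highest fold change from normal liver to Ht, for Lrat, a quiescent member that was lower in Ht, and for Rgs5, a mural member that was lower in Ht. Capitals mark a CArG box in which at most 1 of the 6 middle bases is not A or T.
Acta2 (chr19:34255374-34255623, minus strand): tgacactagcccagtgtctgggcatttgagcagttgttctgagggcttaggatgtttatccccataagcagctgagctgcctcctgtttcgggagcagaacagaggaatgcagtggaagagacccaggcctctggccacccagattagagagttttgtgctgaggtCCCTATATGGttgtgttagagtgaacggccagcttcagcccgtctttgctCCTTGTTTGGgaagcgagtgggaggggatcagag
Lrat (chr3:82903975-82904224, minus strand): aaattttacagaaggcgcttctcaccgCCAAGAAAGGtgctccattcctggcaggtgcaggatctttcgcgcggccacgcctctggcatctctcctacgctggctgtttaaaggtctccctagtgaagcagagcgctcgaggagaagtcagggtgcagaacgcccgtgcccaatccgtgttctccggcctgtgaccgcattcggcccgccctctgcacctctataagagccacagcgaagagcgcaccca
Rgs5 (chr1:169655251-169655500, plus strand): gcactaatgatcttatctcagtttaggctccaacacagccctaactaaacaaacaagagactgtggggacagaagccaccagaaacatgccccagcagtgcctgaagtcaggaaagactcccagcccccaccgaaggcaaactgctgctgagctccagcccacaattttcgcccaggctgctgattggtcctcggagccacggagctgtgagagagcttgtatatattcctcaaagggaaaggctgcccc
The motif reads as itself on both strands. In the window searched, 250 bases before to 50 after the start site, the exact box was in none of the 7 members found in the promoter table and in 1.63% of all 32851 promoters. With at most 1 other base it was in 9.98% of all promoters, at 2 places in Acta2 (CCCTATATGG, 84 bases upstream, and CCTTGTTTGG, 34 bases upstream) and at 1 place in Lrat (CCAAGAAAGG, 223 bases upstream). Acta2 and Lrat, whose levels went opposite ways, both held a match. These letters are a description of the sequence, and whether the factor binds there was not tested. Tagln and Pdgfrb were not in the promoter table.

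Rgs5 encodes a regulator of G-protein signaling that is a common marker of pericytes (chromosome 1, 169655501 to 169695813). Rgs5 was at 107 and 67.2 CPM in con. At day 9 the Lt libraries had 65.4 and 52.7 CPM and the Mt3 libraries 50.4 and 62.3 CPM, at day 11 the values were 43.1 and 33.7 CPM for Mt2 and 57.9 and 33.9 CPM for Mt1, and at day 12 both Ht samples had 17.8 and 23.0 CPM. Although listed with the mural genes, both con libraries were above all metastasis libraries and both Ht samples below all others, as for Reln. Des encodes desmin, the muscle intermediate filament that also marks rodent stellate cells (chromosome 1, 75360329 to 75368579), and it stayed between 6.70 and 11.5 CPM in all 13 tissue samples. Kcnj8 encodes the pore of a potassium channel of pericytes (chromosome 6, 142564837 to 142571614) and measured from 4.18 CPM in an Ht sample to 10.9 CPM in a Mt3 library, with con at 10.2 and 5.13 CPM. Tagln encodes transgelin, an actin-binding protein of smooth muscle (chromosome 9, 45929619 to 45936058), and had only 2 to 21 counts in any tissue library, or 0.177 to 1.36 CPM. In the GENCODE M21 annotation 67.9% of the exonic bases of Tagln were shared with exons of 2 genes of the other strand, Gm48529 (2 to 23 counts per tissue library) and Pcsk7 (552 to 663 counts), against 0 to 6.74% for the other 8 members. The library kit does not mark strand, so reads of Tagln and of these genes cannot be told apart there, and the part of this in its values was not tested.

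From con to Lt Acta2 and Pdgfrb were the members that passed the test, and markers of other cells differed as well (given below). Acta2 rose by 2.78 on the log2 scale (SE 0.67, adjusted p = 0.0236) and Pdgfrb by 1.27 (SE 0.30, adjusted p = 0.0206). Of the 9 members these 2 were called, both higher, where 12.7% of the 17187 genes tested were called and 12.4% were called higher, against 0.256% lower. In 7 members the Lt libraries did not overlap with con, which was so for 63.9% of all genes. A gene was called where the adjusted p in edgeR's quasi-likelihood test did not exceed 0.05 and the log2 fold change was 1 or more in size. Reln was at -1.05 (SE 0.34, adjusted p = 0.0748), Lrat at 0.63 (SE 0.44, adjusted p = 0.37) and Hgf at 0.53 (SE 0.37, adjusted p = 0.366), with Lt samples below con for Reln and above con for the other two. Tagln was at 1.74 (SE 0.71, adjusted p = 0.144), with 2.46 without con replicate 2 and 1.10 without Lt replicate 2, and Des, Rgs5 and Kcnj8 lay between -0.56 and 0.25. Both calls depended on single libraries. Without con replicate 2, Acta2 was at 2.29 (adjusted p = 0.169) and Pdgfrb at 0.97 (adjusted p = 0.157). The call of Acta2 was also lost without con replicate 1 (3.48, adjusted p = 0.0582) or Lt replicate 1 (0.0925), and that of Pdgfrb without Lt replicate 2 (0.14). Reln was called lower with DESeq2 (-1.12, adjusted p = 0.014), without the filter on low counts, with the replicate number as a block (-1.05, adjusted p = 0.038) and when only con and Lt were fitted.

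From con to Mt, the mean of Mt3, Mt2 and Mt1, the receptor and the contractile actin rose while reelin fell, and markers of other cells differed as well (given below). Acta2 rose by 3.07 on the log2 scale (SE 0.62, adjusted p = 0.00461), Pdgfrb rose by 1.70 (SE 0.26, adjusted p = 0.00126) and Reln fell by 1.43 (SE 0.26, adjusted p = 0.00264). These 3 of 9 members were called, where 30.5% of all genes tested were called, 20.2% higher and 10.3% lower. The Mt libraries did not overlap with con in 4 members, Reln, Pdgfrb, Acta2 and Rgs5 (53.8% of all genes). Rgs5 was at -0.91 (SE 0.24, adjusted p = 0.0142), under the fold threshold, and was called lower without con replicate 2 (-1.20) or without Mt1 replicate 1 (-1.06). Lrat (-0.03, SE 0.36), Hgf (0.04, SE 0.30), Des (0.04, SE 0.24) and Tagln (0.74, SE 0.63) were not called, and neither was Kcnj8, whose fitted change was under 0.01. Without con replicate 2 Tagln was at 1.48. The fitted means of Lrat, Hgf, Des and Kcnj8 were near those of con, while their single Mt libraries lay on both sides of it. Without con replicate 2 the call of Acta2 was lost (2.59, adjusted p = 0.0546), without con replicate 1 it was at 3.78, and with total counts Reln was at -0.85 (adjusted p = 0.005), under the fold threshold.

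From con to Ht all 3 quiescent stellate members fell, of which Hgf was also found in the sorted macrophage fractions. Reln fell by 3.31 on the log2 scale (SE 0.37, adjusted p = 0.000163), from 93.2 ± 1.82 to 9.40 ± 0.932 CPM (SD, n = 2 each). Lrat fell by 1.49 (SE 0.45, adjusted p = 0.0165), from 16.4 ± 1.51 to 5.86 ± 1.36 CPM, and Hgf fell by 1.23 (SE 0.38, adjusted p = 0.0169), from 18.1 ± 1.25 to 7.68 ± 0.366 CPM. Among the activated or mural members, Acta2 rose by 3.52 (SE 0.68, adjusted p = 0.00173), from 5.03 ± 2.78 to 57.5 ± 1.73 CPM, and Pdgfrb rose by 2.36 (SE 0.30, adjusted p = 0.000266), from 15.8 ± 4.93 to 81.3 ± 6.49 CPM. Rgs5 fell by 2.09 (SE 0.32, adjusted p = 0.000537), from 87.1 ± 28.1 to 20.4 ± 3.67 CPM. In all, 6 of 9 members were called, 2 higher and 4 lower, where 49.9% of all genes tested were called, 25.8% higher and 24.1% lower. In 7 members, all but Des and Kcnj8, the Ht samples did not overlap with con (85.7% of all genes). Des (-0.16, SE 0.29, adjusted p = 0.642), Kcnj8 (-0.66, SE 0.39, adjusted p = 0.161) and Tagln (0.72, SE 0.70, adjusted p = 0.387, or 1.45 without con replicate 2) were not called. The median of all genes was 0.094 with TMM and 1.275 when libraries were scaled by total counts. Under total counts Reln, Pdgfrb and Acta2 kept their calls, whereas Lrat was at -0.30 (adjusted p = 0.472), Hgf at -0.05 (adjusted p = 0.875) and Rgs5 at -0.90 (adjusted p = 0.0109), each below that median, and Des was called higher at 1.03 (adjusted p = 0.0382), also below it. That made 4 of 9 members called, where 64.4% of all genes were called. The calls of Lrat and Hgf were lost without the summed Ht replicates 1 and 3 (adjusted p = 0.103 and 0.0813), that of Lrat also without con replicate 1 (0.0628), and that of Hgf also without con replicate 2 (0.068) or Ht replicate 2 (0.0615). Without con replicate 2 Kcnj8 was called lower (-1.07, adjusted p = 0.0461). Acta2 kept its call but was at 4.23 without con replicate 1 and at 3.04 without con replicate 2. The summed Ht libraries differed in Reln, with 124 counts in replicate 1 and 345 in replicate 3, on both sides of the 289 counts of replicate 2, which the SD over 2 samples does not show. Reln was at -3.05 without Ht replicate 1 and at -3.65 without Ht replicate 3.

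From Mt to Ht the quiescent stellate members and Rgs5 fell, while Pdgfrb and Acta2 did not pass the test. Reln fell by 1.88 (SE 0.31, adjusted p = 0.00896), Lrat by 1.45 (SE 0.39, adjusted p = 0.0305), Hgf by 1.28 (SE 0.32, adjusted p = 0.0254) and Rgs5 by 1.18 (SE 0.27, adjusted p = 0.018). For these 4 genes and Kcnj8 both Ht samples lay below all 6 Mt libraries, and groups did not overlap in 41.4% of all genes. The 4 of 9 members called, all lower, stand beside 14.9% of all genes tested, 1.5% called higher and 13.4% lower. Pdgfrb was at 0.66 (SE 0.22, adjusted p = 0.0598) and Acta2 at 0.45 (SE 0.47, adjusted p = 0.492), with Ht inside the range of the Mt libraries for Acta2. No member was called without Ht replicate 2 or without the summed Ht replicates 1 and 3, where 0% of all genes were called, and 2 were called without Mt3 replicate 1, where Lrat (adjusted p = 0.0618) and Hgf (0.0552) were lost and 10.8% of all genes were called. Lrat was also lost without Mt3 replicate 2 (adjusted p = 0.0532) and with Mt3, Mt2 and Mt1 as 1 group (0.0542). With only the groups compared, both Lrat (adjusted p = 0.0617) and Hgf (0.0505) were lost. Under total counts 2 members were called, Reln lower and Pdgfrb higher at 1.18 (adjusted p = 0.0221), where 25.4% of all genes were called.

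**Figure D2:**
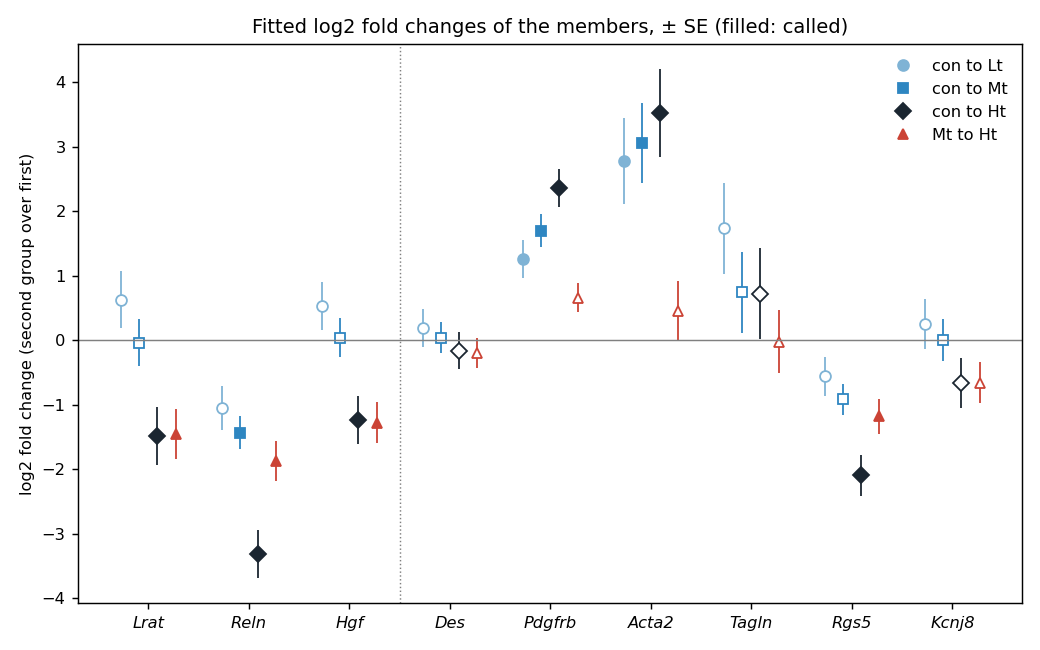
Fitted log2 fold changes (y axis, second group over first) of the 9 members (x axis) in the 4 tissue comparisons, with bars of 1 SE. Filled symbols were called and open symbols were not, and the dotted line parts the 3 quiescent stellate members from the 6 activated or mural members. From con to Ht, Reln stands at -3.31 and Acta2 at 3.52, and Rgs5 lies with the quiescent members at -2.09.

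Ratios of counts within a library do not depend on the scaling. Pdgfrb counts per Lrat count were 1.11 and 0.805 in con. The day 9 pieces had 1.38 and 1.61 (Lt) and 1.78 and 1.59 (Mt3), the day 11 pieces 2.73 and 6.60 (Mt2) and 2.52 and 11.1 (Mt1), and both Ht samples 17.5 and 11.2. The ratio was higher in every metastasis library than in con and was 0.956 ± 0.213 in con against 14.4 ± 4.43 in Ht (SD, n = 2 each, no test). Acta2 counts per Reln count were 0.0537 ± 0.0288 in con, 0.758 ± 0.286 in Lt and 6.14 ± 0.425 in Ht. The pair of mural genes Rgs5 and Pdgfrb parted: Rgs5 counts per Pdgfrb count were 5.50 ± 0.060 in con, at day 9 1.60 ± 0.505 (Lt) and 1.43 ± 0.352 (Mt3), at day 11 0.810 ± 0.384 (Mt2) and 0.744 ± 0.438 (Mt1), and 0.254 ± 0.0654 in Ht. Rgs5 was thus above Pdgfrb in normal liver and below it in Ht.

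**Figure D3:**
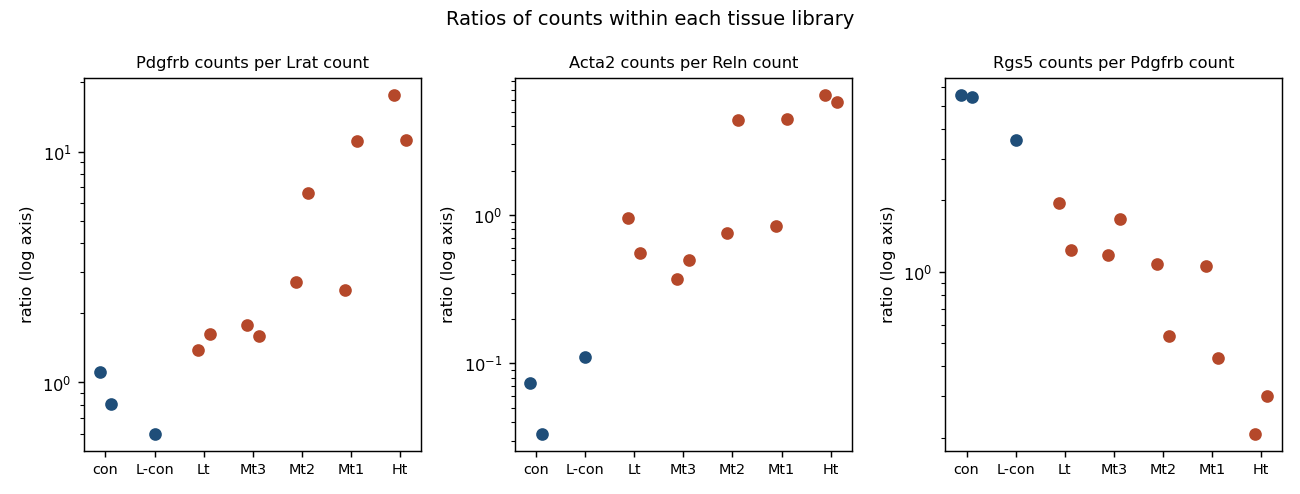
Ratio of the counts of 2 members within each tissue library (y axis, log scale) by group (x axis), 1 point a sample, blue for con and L-con and red for metastases. Pdgfrb per Lrat and Acta2 per Reln were lowest in con and L-con, Rgs5 per Pdgfrb was highest there, and within Mt2 and Mt1 replicate 2 lay nearer to Ht in all 3 panels.

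Compared per length (CPM per kilobase of the deposited gene length), Rgs5 was the highest of the 9 members in normal liver, at 19.2 ± 6.18 (SD, n = 2). Reln followed at 3.93 ± 0.077, then Lrat at 3.06 ± 0.283, Kcnj8 at 3.004 ± 1.40, Pdgfrb at 2.89 ± 0.900, Acta2 at 2.82 ± 1.56, Hgf at 2.51 ± 0.174 and Des at 2.25 ± 0.656, with Tagln last at 0.149 ± 0.084. From Lrat to Des each gene lay within 1 SD of its neighbour. In Ht the order was Acta2 at 32.3 ± 0.970, Pdgfrb at 14.8 ± 1.18, Rgs5 at 4.49 ± 0.807, Des at 2.01 ± 0.050, Kcnj8 at 1.90 ± 0.362, Lrat at 1.10 ± 0.254, Hgf at 1.07 ± 0.051, Reln at 0.396 ± 0.039 and Tagln at 0.249 ± 0.006. Des and Kcnj8, and Lrat and Hgf, did not differ beyond their SD there. Acta2, in the middle of the order in normal liver, was on top in Ht, and Reln, next to the top in normal liver, was next to the bottom in Ht. The place of Tagln is uncertain, since its full length was used although 67.9% of its exonic bases were shared with other genes.

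The 2 replicates of Mt2 and of Mt1 stood far apart, and the members differed between them together with the hepatocyte markers. Replicate 2 of Mt2 and of Mt1 had hepatocyte sums of 25941 and 25238 CPM, whereas the other 4 Mt libraries had 95612 to 130153 CPM. The same 2 libraries held the highest Acta2 and Pdgfrb of the 6 Mt libraries and the lowest Reln, Lrat, Hgf and Rgs5. Their endothelial sums were 275 and 339 CPM against 431 to 536 CPM in the other 4, and their fibroblast sums 5267 and 6677 CPM against 2200 to 3376 CPM. Without both libraries, a fit chosen after seeing the data, the same number of members was called from con to Mt (3), and 5 were called from Mt to Ht, where Acta2 was called higher at 1.14 (adjusted p = 0.0151). In that fit 25% of all genes were called from con to Mt and 24.9% from Mt to Ht. The part of liver content in the results was not tested.

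Over the 13 tissue samples Lrat, Hgf, Reln and Rgs5 moved with one another, and Pdgfrb moved with Acta2, which is given as a description because the samples share the change in liver content. Pearson's r of log2 CPM was 0.96 between Lrat and Hgf and 0.96 between Reln and Rgs5, and from 0.799 to 0.824 for the other pairs of these 4 genes. It was 0.93 between Pdgfrb and Acta2, whereas Reln had -0.90 with Pdgfrb and -0.82 with Acta2, and Rgs5 had -0.83 with Pdgfrb. Kcnj8 was at most 0.717 with any other member (Lrat), Des 0.42 (Acta2) and Tagln 0.25 (Acta2). The genes most like Acta2 were Mcam (r = 0.97), Ier3 (0.97) and Trim46 (0.97). Mcam encodes CD146, which is listed here with the mural genes and which the paper used as an endothelial marker. The genes most like Pdgfrb were Pard6g (0.99), Ahnak (0.99) and Arl6 (0.99). Reln was most like Gpt2 (0.99), Slc7a2 (0.99) and Etnppl (0.99), of which the first makes alanine from pyruvate and the second carries cationic amino acids. Lrat was most like Kcna2 (0.97), Erc2 (0.96) and Cd163 (0.96), the last a scavenger receptor of resident macrophages. Hgf was most like Pdia5 (0.99), Fcna (0.98) and BC049987 (0.97), and Rgs5 most like Atp1b1 (0.98), Mup20 (0.98) and Retreg1 (0.98). For Des (Plagl1, 0.83), Kcnj8 (the metallothionein gene Mt1, 0.88) and Tagln (Mfap1b, 0.85) the nearest gene was farther.

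Other genes of these cells were taken from lists that do not hold the members. Of 16 other stellate genes tested from con to Ht, 12 fell (24.1% of all genes), 0 rose (25.8%) and 4 were not called, with a median log2 fold change of -1.87 beside 0.094 for all genes. The 2 that fell most were the collectins Colec10 (-3.72, SE 0.52, adjusted p = 0.000387), from 67.2 ± 2.504 to 5.11 ± 1.14 CPM, and Colec11 (-3.59, SE 0.58, adjusted p = 0.000683), from 55.1 ± 8.58 to 4.55 ± 0.717 CPM. Lhx2, a transcription factor of stellate cells, fell by 1.77 (SE 0.39, adjusted p = 0.00334), whereas Cygb, the stellate cell globin, was at -0.26 (SE 0.21, adjusted p = 0.292). From con to Lt 0 of the 16 were called, also with DESeq2 and with total counts, from con to Mt 3 fell (5 with DESeq2, 1 with total counts) and from Mt to Ht 8 fell (8 and 4). Of all genes, 0.256% were called lower from con to Lt, 10.3% from con to Mt and 13.4% from Mt to Ht. With DESeq2 and with total counts, 32.6% and 35.7% were called in either direction from con to Mt, and 17.2% and 25.4% from Mt to Ht. With total counts 5 fell and 0 rose from con to Ht, with a median of -0.69 beside 1.28 for all genes, of which 64.4% were called.

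Of 19 other pericyte and smooth muscle genes 17 were tested. From con to Ht 6 rose (25.8% of all genes), 3 fell (24.1%) and 8 were not called, with a median of 0.88. Tpm1, an actin-binding tropomyosin, rose by 3.36 (SE 0.40, adjusted p = 0.000202) and Tpm2 by 3.10 (SE 0.52, adjusted p = 0.00087), and Mcam rose by 1.60 (SE 0.23, adjusted p = 0.000396). Cnn1, calponin of smooth muscle, was at 3 counts in both con libraries and 11.6-fold higher in Ht, with an exact 95% counting interval from 5.27 to 32.03. Mylk, myosin light chain kinase, fell by 1.66 (SE 0.18, adjusted p = 0.000153), and so did Abcc9, the partner subunit of the Kcnj8 channel, by 1.56 (SE 0.30, adjusted p = 0.00157), from 47.0 ± 9.94 to 15.9 ± 0.885 CPM. Notch3 (0.23, adjusted p = 0.567), Myh11 (0.85, adjusted p = 0.24) and Myl9 (0.88, adjusted p = 0.124) were not called. From con to Lt 4 of the 17 rose and from con to Mt 5 rose, with 0 called lower in either, and from Mt to Ht 1 fell. Of all genes, 12.4% were called higher from con to Lt and 20.2% from con to Mt, and 13.4% lower from Mt to Ht. With total counts 2 rose from con to Lt and 8 from con to Mt, and with DESeq2 4 and 7. The shares of all genes called there in either direction were 11.7% and 35.7% with total counts, and 14.7% and 32.6% with DESeq2. With total counts 11 rose and 0 fell from con to Ht, where 64.4% of all genes were called and the median of all genes was 1.275. Mylk, Abcc9 and Gucy1b1 were thus called lower with TMM and not with total counts.

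**Figure D4:**
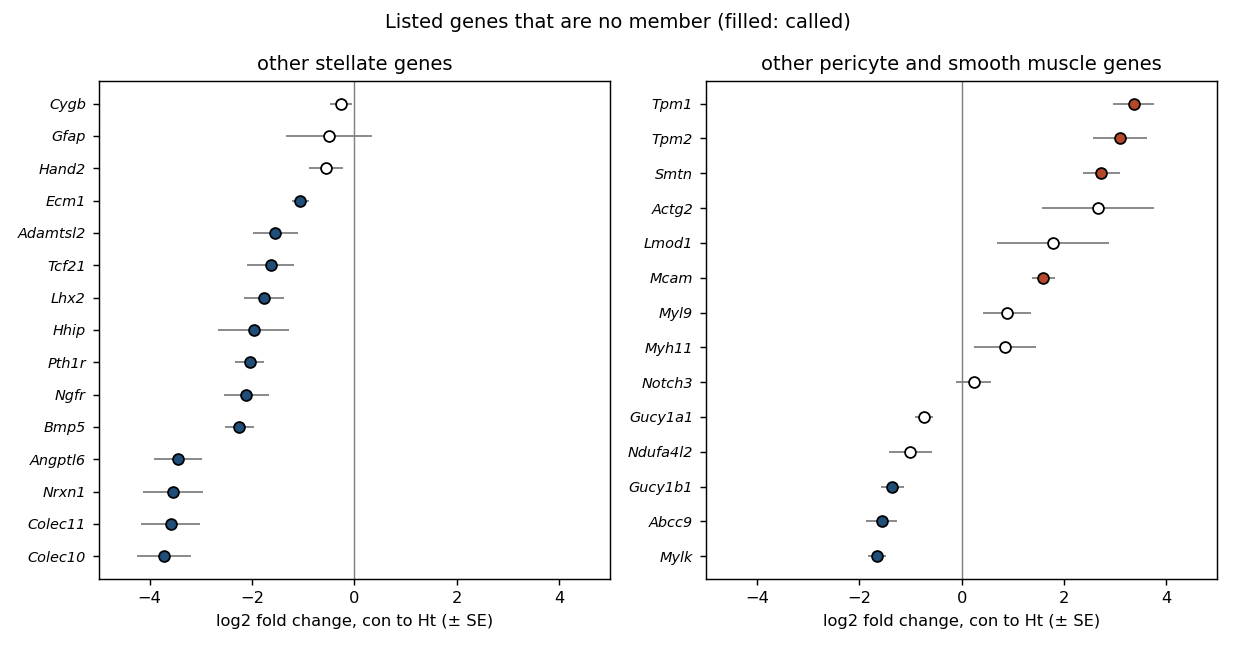
Fitted log2 fold change from con to Ht (x axis, bars of 1 SE) of 15 of the 16 other stellate genes (left) and of the 14 of 19 other pericyte and smooth muscle genes with more than 3 counts in at least 1 con library (right). Filled points were called, blue lower and red higher. All 15 stellate genes drawn lie below 0 on this TMM scale, and the mural genes lie on both sides, from Mylk at -1.66 to Tpm1 at 3.36.

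Of 14 partner genes, the ligands, receptors and carriers that act with the members, 7 rose (25.8% of all genes) and 4 fell (24.1%) from con to Ht, with a median of 1.14. With total counts 7 rose and 3 fell, where 64.4% of all genes were called. On the platelet-derived growth factor side, the ligand genes Pdgfa (1.72, SE 0.23, adjusted p = 0.000312), Pdgfb (1.56, SE 0.46, adjusted p = 0.0141) and Pdgfc (1.52, SE 0.28, adjusted p = 0.00137) rose, and Pdgfd fell by 1.19 (SE 0.37, adjusted p = 0.0195). Pdgfra, the alpha receptor of fibroblasts, rose by 4.24 (SE 0.41, adjusted p = 0.000107), from 10.7 ± 3.96 to 202 ± 1.80 CPM. On the reelin side, the receptor gene Vldlr fell by 4.11 (SE 0.88, adjusted p = 0.00291), and Lrp8, the other receptor, had 0 and 1 counts in con and was at 12.2 ± 1.34 CPM in Ht, which is 279.7-fold higher with a counting interval from 50.1 to 11058. On the hepatocyte growth factor side, Hgfac, the plasma protease that activates the factor, fell by 5.44 (SE 0.75, adjusted p = 0.000361), St14, a membrane protease, rose by 1.09 (SE 0.42, adjusted p = 0.0426), and Met was at -0.90 (SE 0.29, adjusted p = 0.0203), under the fold threshold. On the retinol side, Rbp4, the plasma carrier, fell by 5.17 (SE 0.80, adjusted p = 0.000562), and Stra6, the receptor of that carrier, had 0 counts in both con libraries and was at least 870-fold higher in Ht, at 224 ± 7.23 CPM. From con to Lt 5 of the 14 partners rose and 0 fell, from con to Mt 7 rose and 3 fell, and from Mt to Ht 1 rose and 2 fell. Of all genes, 12.4% rose and 0.256% fell from con to Lt, 20.2% and 10.3% from con to Mt, and 1.5% and 13.4% from Mt to Ht.

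Marker lists of other cells are set beside these counts from con to Ht, where 25.8% of all genes were called higher and 24.1% lower. All 9 hepatocyte genes tested fell, among them Cps1 (-6.98, SE 1.21, adjusted p = 0.000978) and Cyp2e1 (-6.47, SE 0.83, adjusted p = 0.000261). Of 10 endothelial genes 6 fell, with Clec4g (-4.64, SE 0.75, adjusted p = 0.000674) and Stab2 (-3.51, SE 0.52, adjusted p = 0.000479) of the sinusoid first, and their summed level went from 554 to 636 CPM in con to 217 to 240 CPM in Ht. Of 10 fibroblast genes 8 rose. Col3a1, the collagen III chain, rose by 6.71 (SE 0.68, adjusted p = 0.000119), Fap was at 1 and 0 counts in con and 377-fold higher in Ht with a counting interval from 67.5 to 14883, and the fibroblast sum went from 274 to 387 CPM in con to 5913 to 6722 CPM in Ht. Of 8 macrophage genes 7 rose, among them Lyz2 (3.14, SE 0.48, adjusted p = 0.000531) and Ptprc (2.80, SE 0.46, adjusted p = 0.000747). Of 7 lymphatic endothelial and mesothelial genes 2 rose and 3 fell, and 1 of 7 neutrophil genes tested rose, S100a8 by 2.14 (SE 0.38, adjusted p = 0.00115). With total counts 2 of the endothelial genes rose and 3 fell, and 6 of the 7 neutrophil genes rose (3 with DESeq2). In either direction 64.4% of all genes were called with total counts and 50.5% with DESeq2. Of 3 skeletal muscle genes tested, Tnni2 and Ttn rose from at most 3 counts in con, and the list of 8 summed to at most 3.13 CPM in any tissue sample. From con to Lt 5 of 10 fibroblast, 5 of 8 macrophage and 3 of 7 neutrophil genes rose, where 12.4% of all genes were called higher. The fibroblast sum was 1595 and 2982 CPM in Lt. From con to Mt 7 of 10 fibroblast, 7 of 8 macrophage and 5 of 7 neutrophil genes rose (20.2% of all genes), and 2 of 9 hepatocyte genes fell (10.3%). In both comparisons 0 of the 10 endothelial genes were called. The part of these other cells in the results was not tested.

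The sorted cells were set against Mt2 tissue to see which members were found in the macrophage fractions. Adgre1, the gene of F4/80, was at 692 to 785 CPM in F4/80+TAM and 508 to 547 CPM in CD11b+TAM, against 101 and 124 CPM in Mt2 tissue, and Itgam, the gene of CD11b, was at 245 to 439 CPM in the sorted libraries against 11.6 and 36.0 CPM. Most members were low in both populations. Reln had 0, 2 and 7 counts in F4/80+TAM and 3, 1 and 0 counts in CD11b+TAM, against 635 and 491 counts in Mt2 tissue. Lrat had 4 to 7 counts in every sorted library against 235 and 235 counts in Mt2 tissue. Des, Kcnj8 and Rgs5 had from 2 to 48 counts in every sorted library, and Acta2 had 17 to 78 counts against 483 and 2147 counts.

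Against Mt2 tissue 7 of 9 members were lower in F4/80+TAM, where 42.3% of the 18407 genes tested were called, 25.2% lower and 17.2% higher. The libraries did not overlap in 8 members (71.5% of all genes). Reln was called lower there (adjusted p = 1.67e-07), but at 0, 2 and 7 counts the size of its change is poorly fixed, with a fitted log2 fold change of -7.64 that was -9.07 without F4/80+TAM replicate 3. The other 6 ran from -5.63 for Lrat (SE 0.47, adjusted p = 3.49e-07) to -2.78 for Pdgfrb (SE 0.35, adjusted p = 1.38e-05). Of these, Acta2 (-5.38) was at -4.38 without Mt2 replicate 2, and without F4/80+TAM replicate 1 it was at -6.06, Des (-4.88) at -5.65 and Rgs5 (-5.02) at -5.96. In CD11b+TAM the same number, 7 of 9, were lower, where 43.9% of all genes were called, 26.3% lower and 17.6% higher. There 8 members did not overlap (65% of all genes). Reln was 447-fold lower (exact 95% counting interval from 174 to 1643), and its fitted log2 fold change of -8.77 was -9.94 without CD11b+TAM replicate 1. Rgs5 was at -6.38 (SE 0.57, adjusted p = 4.75e-07) and Pdgfrb at -3.91 (SE 0.37, adjusted p = 8.13e-07). Rgs5 was at -7.09 and Des at -5.28 (-4.67 with all libraries) without CD11b+TAM replicate 3, and Acta2 at -3.28 (-4.27 with all libraries) without Mt2 replicate 2, all still called. Hgf differed from the other stellate members here. It measured 17.1, 18.6 and 14.9 CPM in F4/80+TAM and 12.1, 10.9 and 5.22 CPM in CD11b+TAM, against 22.4 and 12.4 CPM in Mt2 tissue. F4/80+TAM thus lay within the range of the tissue (log2 fold change -0.04, SE 0.36, adjusted p = 0.939) and CD11b+TAM below it (-0.88, SE 0.35, adjusted p = 0.0475, under the fold threshold). In bulk tissue, Hgf transcripts of such cells and of stellate cells cannot be told apart. Without Mt2 replicate 2 or without CD11b+TAM replicate 1, Hgf was called lower in CD11b+TAM (-1.21 and -1.06). Pdgfrb kept 125, 139 and 209 counts in F4/80+TAM and 106, 94 and 28 counts in CD11b+TAM, the highest count of an activated or mural member in 5 of these 6 libraries, with Acta2 above it in CD11b+TAM replicate 3. Of the 16 other stellate genes, 14 were lower in F4/80+TAM and 15 in CD11b+TAM, while Ecm1, an extracellular matrix protein, was higher in both (1.81, adjusted p = 7.45e-05, and 1.44, adjusted p = 0.000428). The ligand gene Pdgfb was higher in both as well (2.59, adjusted p = 3.83e-05, and 2.20, adjusted p = 0.000127). Tagln was at 2 to 18 counts in the sorted libraries and was not called (-0.61, adjusted p = 0.493, and -0.31, adjusted p = 0.73).

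**Figure D5:**
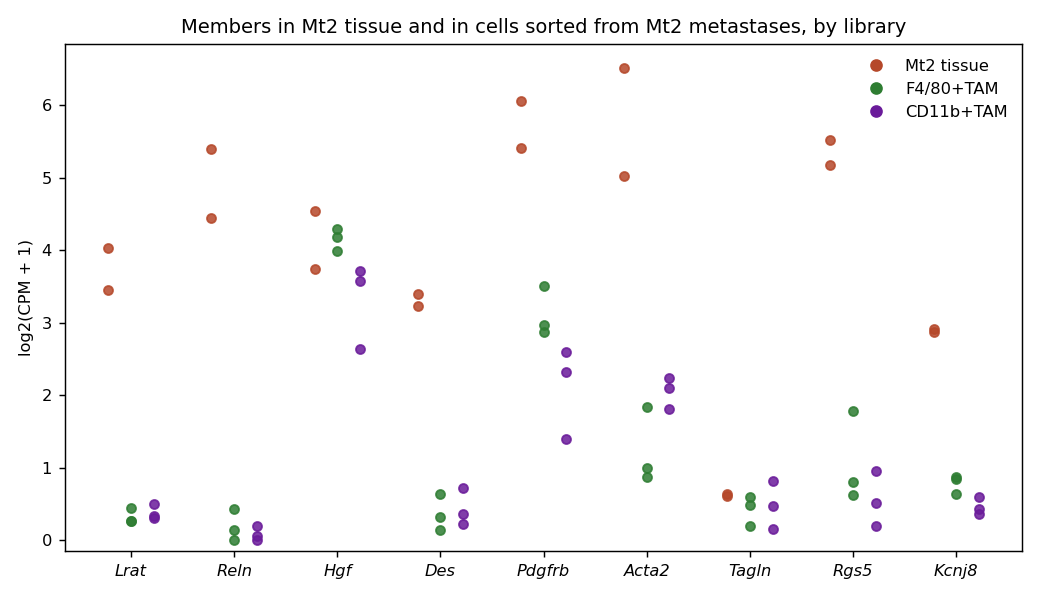
Level of the 9 members (y axis, log2(CPM + 1)) in the 2 Mt2 tissue libraries, the 3 F4/80+TAM libraries and the 3 CD11b+TAM libraries, 1 point a library. In 7 members the sorted libraries lie below both tissue libraries, Hgf of F4/80+TAM lies between the 2 tissue libraries, and Tagln is near 0 in all.

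Between F4/80+TAM and CD11b+TAM 5 of the 9 members had enough counts for the test, and 0 were called, where 0.0771% of the 14263 genes tested were called, 0.00701% higher and 0.0701% lower. With DESeq2 0 members were called, where 2.1% of all genes were. At an unadjusted p under 0.05 edgeR gave 3 of the 5 members (10.5% of all genes). These were Hgf at 0.79 (SE 0.30, adjusted p = 0.445) and Pdgfrb at 1.08 (SE 0.40, adjusted p = 0.441), both higher in F4/80+TAM, and Acta2 at -1.16 (SE 0.47, adjusted p = 0.464), higher in CD11b+TAM. The libraries of both populations did not overlap for these 3 genes or for Kcnj8, which was so for 23.3% of all genes. CD11b+TAM replicate 3 had the lowest Hgf and Pdgfrb and stood apart in its neutrophil sum, 4154 CPM against 584 and 1049 CPM in the other 2. Without it Hgf was at 0.51 and Pdgfrb at 0.75, and 0 members were called, where 0.927% of all genes were. Acta2 was at -1.85 without F4/80+TAM replicate 1. In neither population were the endothelial (134 to 332 CPM) and fibroblast (168 to 535 CPM) sums at 0, and the part of such cells in the Pdgfrb counts was not tested.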

How the data were processed

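Gene expression was measured by RNA-seq of 14 tissue libraries and 6 libraries of sorted cells. The authors deposited raw read counts per gene for 54532 genes in 2 tables. Submitters' processing notes name CASAVA, HISAT2 2.0.5 and featureCounts 1.5.0-p3, and genome GRCm38. The annotation release and the strand setting are not given in the sources used here. Libraries were made from total RNA with a kit that does not mark strand. The sorted table was joined to gene names by gene identifier, and 0 columns were left unmapped.

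Genes low in counts were removed with filterByExpr of edgeR 4.0.16 (R 4.3.3), libraries were scaled by TMM, and groups were compared by its quasi-likelihood F test, with p-values of all genes tested adjusted after Benjamini and Hochberg. This left 17187 genes in tissue (13 samples), 18407 in tissue and sorted cells together (19 samples) and 14263 in sorted cells (6 libraries). Calls were made where the adjusted p did not exceed 0.05 and the log2 fold change was 1 or more in size. SEs were derived from the F statistic. Whether libraries of a group came from separate mice is given only in part, so p-values measure the spread between these samples, which may be partly technical. Where all libraries of the lower group were at 0, a floor of 3 counts per library (0.248 to 0.266 CPM in con) gave a lower bound. Where such a group held a few counts, the ratio of summed counts per summed library size was given with its exact 95% binomial interval. Both cover counting error only. The code was tested on simulated counts.

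The members and gene lists were chosen with earlier results of these data known. Named were all 9 members, of each list up to 2 called genes with the largest change in each direction from con to Ht, and the 3 genes most like each member by Pearson's r of log2(CPM + 0.5) over tissue samples. Other list genes were named for their roles after their values were seen. The values of 1 listed gene are not reported here. The lists hold 16 other stellate, 19 other pericyte and smooth muscle, 14 partner, 10 fibroblast, 10 endothelial, 10 hepatocyte (9 found by name), 8 macrophage, 8 skeletal muscle, 8 neutrophil, and 7 lymphatic endothelial and mesothelial genes. L-con, with 1 library, entered no test. Replicate numbers were not taken to pair the groups compared, since same-numbered samples did not deviate together in all of them. Alternatives were DESeq2 1.42.0, scaling by total counts, 2 other filters, a replicate block, other groupings and leaving out libraries.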

Additional observations from a re-analysis of the deposited data

Results flagged for a closer look

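The library of tumor-free liver from a metastasis-bearing mouse (L-con) entered no comparison, and 4 members lay there above both normal livers. Lrat measured 32.1 CPM in L-con, 1.96 times the con mean of 16.4 CPM and above every other tissue sample. Hgf measured 28.7 CPM, 1.59 times the con mean of 18.1 CPM. Acta2 measured 7.09 CPM against 6.99 and 3.06 CPM in con, and Tagln measured 0.494 CPM against 0.177 and 0.414 CPM. Reln, at 64.6 CPM, and Kcnj8, Des, Pdgfrb and Rgs5, at 7.42, 7.25, 19.2 and 69.2 CPM, did not lie above both. The fibroblast sum was 643 CPM in L-con against 387 and 274 CPM in con, and the macrophage sum 920 CPM against 546 and 347 CPM. The hepatocyte sum, 155716 CPM, was below both con libraries. With 1 library these differences have no replicate check. Dixon's test over the 6 Mt libraries marked no member, but it cannot mark 2 samples that lie out together, as replicate 2 of Mt2 and of Mt1 did for Acta2 (86.7 and 93.1 CPM, with the other 4 at 19.4 to 32.5 CPM).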

How the results depend on the processing

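The number of members called was 2 (con to Lt), 3 (con to Mt), 6 (con to Ht), 4 (Mt to Ht), 7 in each sorted population against Mt2 and 0 between the sorted populations. It was 2 from Mt to Ht with total counts (25.4% of all genes) and with only the groups compared (13%), and 2 for each sorted population against Mt2 when at least 10 counts were asked of every library, which left 3 members (34.7% of all genes for F4/80+TAM and 35.9% for CD11b+TAM). Leaving out a library gave 0 to 1, 3 to 4, 4 to 6, 0 to 4, 7 to 7, 7 to 8 and 0 to 0 members, where 4.29 to 13.3%, 18 to 36.2%, 44.3 to 49.5%, 0 to 20.8%, 36.9 to 40.3%, 38.1 to 43.2% and 0 to 0.927% of all genes were called. Leaving out both Mt libraries low in hepatocyte transcripts gave 5 from Mt to Ht (24.9% of all genes).

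The median of all genes was 0.101, 0.081, 0.094 and 0.003 from con to Lt, con to Mt, con to Ht and Mt to Ht, and 0.396, 0.718, 1.275 and 0.549 with total counts. With total counts the sign changed for Lrat from con to Mt (0.55), Des (1.03) and Kcnj8 (0.54) from con to Ht, Des (0.33) and Tagln (0.51) from Mt to Ht, and Hgf in F4/80+TAM against Mt2 (0.050). Signs also changed with DESeq2 for Hgf (-0.0045) and Kcnj8 (-0.042) from con to Mt and Tagln (0.040) from Mt to Ht, with the count minimum for Lrat from con to Mt (0.030), without a filter for Tagln from Mt to Ht (0.069), with only the groups compared for Kcnj8 from con to Mt (-0.0039) and with Mt as 1 group for Lrat from con to Mt (0.026). Without both Mt libraries, signs changed for Lrat (0.24) and Des (-0.14) from con to Mt, and for Des (0.00016) and Tagln (0.094) from Mt to Ht. Leaving out a library changed signs from con to Lt in Des (-0.092 to 0.51) and Kcnj8 (-0.17 to 0.81), from con to Mt in Lrat (-0.38 to 0.17), Hgf (-0.18 to 0.19), Des (-0.23 to 0.38) and Kcnj8 (-0.41 to 0.58), from con to Ht in Des (-0.43 to 0.17), from Mt to Ht in Tagln (-0.21 to 0.32), and against Mt2 in Hgf of F4/80+TAM (-0.36 to 0.45) and Tagln of CD11b+TAM (-1.03 to 0.098). None of these but Des from con to Ht with total counts was called. Their cause was not tested.

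Same-numbered samples of the groups compared did not deviate together throughout (r from -0.337 to 0.134, the highest for replicate 1 of F4/80+TAM and Mt2, whose replicate 2 had 0.012), so they were taken to share only a number. Among Lt, Mt3, Mt2 and Mt1, which were not compared with each other, they did (r from 0.21 for Mt3 with Mt1 to 0.671 for Mt2 with Mt1). Mt3, Mt2 and Mt1 were averaged to Mt as separate samples, so the SEs and p-values of comparisons with Mt may be too small. With the replicate block 3, 3, 6, 4, 7, 7 and 0 members were called, where 13.6, 32, 50.1, 16.5, 41.3, 42.1 and 0.547% of all genes were called, and the sign changed for Hgf from con to Mt (-0.013), Tagln from Mt to Ht (0.070) and Hgf in F4/80+TAM against Mt2 (0.23). With the numbers of the second group exchanged, chosen after seeing the data, 2, 6 and 4 members were called from con to Lt, con to Ht and Mt to Ht (11.4, 50.4 and 17% of all genes), with Tagln from Mt to Ht at 0.018.

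Groups of 2 samples limit the precision of every tissue value. Tagln had at most 21 counts in a tissue library. Sorted and tissue libraries came in separate tables, so the kind of sample and the batch cannot be told apart.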

Other observations

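Pdgfra and Stra6, partners of the members, differed in level along the tissue groups. Pdgfra measured 13.5 and 7.86 CPM in con, 35.5 and 64.0 CPM in Lt, 58.8 and 66.4 CPM in Mt3, 82.1 and 140 CPM in Mt2, 109 and 147 CPM in Mt1, and 203 and 200 CPM in Ht. Stra6 was at 0 counts in con and at 5.27 CPM in L-con, at 24.6 and 68.7 CPM in Lt, 50.5 and 66.4 CPM in Mt3, 88.6 and 170 CPM in Mt2, 102 and 174 CPM in Mt1, and 229 and 218 CPM in Ht. All metastasis libraries lay above con for both genes, and replicate 2 of Mt2 and of Mt1, the pieces low in hepatocyte markers, lay nearest to Ht.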
